A study of Mus musculus with 8 samples.

Results

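Coagulation and fibrinolysis were followed through 9 genes whose names head 12 of the 55681 probes on the array, out of 36163 gene names. The genes were F3, Tfpi, Tfpi2, Thbd, Procr, Plat, Plau, Plaur and Serpinb2, taken by the gene name printed in the array files and with every probe of each. The lungs came from C57BL/6 mice, 4 wild-type and 4 with a lung-specific GGPPS1 knockout (gene Ggps1, the enzyme that makes geranylgeranyl diphosphate), and all 8 mice had received lipopolysaccharide (LPS) 12 h before. LPS, a component of the outer membrane of Gram-negative bacteria, injures the lung, and the study asked what the lack of GGPPS1 does to this injury. Each lung had 1 Agilent array, read in a single colour. What drives the deletion, and the age and sex of the mice, are not stated in the labels, and lungs without LPS were not analysed here, so every comparison is of genotypes in injured lung. In whole-lung RNA, fewer cells of a type and less RNA per cell cannot be told apart.

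Clotting starts when tissue factor, the product of F3, is exposed to plasma and binds factor VII, and it ends in thrombin and fibrin. Tissue factor pathway inhibitor (Tfpi) shuts that complex down, and thrombomodulin (Thbd) turns thrombin into an activator of protein C, helped by the endothelial protein C receptor (Procr). Fibrin is removed by plasmin, which tissue plasminogen activator (Plat) and urokinase (Plau) make from plasminogen. In the LPS-injured lung, tissue factor on epithelium and macrophages and low plasminogen activation are known to favour fibrin in the airspaces. In cultured endothelial cells, statins, which deprive the cell of geranylgeranyl groups, are known to raise thrombomodulin and to lower tissue factor.

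The sequences upstream of 5 members are shown because these genes gave the values on which the comparisons turn. From lung to lung, F3 also correlated with Procr, and Plaur and Tfpi2 with Serpinb2. Each of these pairs passed by Pearson's or by Spearman's correlation but not by both, as given below. The sequences are the 250 bases before the start of the transcript, from RefSeq on build GRCm38.p6. Capitals mark the letters TGANTCA, to which AP-1 factors are known to bind, or GGANTTTCC, a form of NF-κB site, on either strand. The motifs were chosen after these sequences were seen, and no match overlapped another.
F3, chr3:121723287-121723536 on the + strand: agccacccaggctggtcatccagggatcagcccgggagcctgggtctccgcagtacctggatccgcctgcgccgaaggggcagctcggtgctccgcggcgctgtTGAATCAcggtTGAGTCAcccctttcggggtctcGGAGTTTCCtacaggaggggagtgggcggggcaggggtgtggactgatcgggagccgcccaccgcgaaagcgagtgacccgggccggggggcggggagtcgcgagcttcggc
Procr, chr2:155750967-155751216 on the + strand: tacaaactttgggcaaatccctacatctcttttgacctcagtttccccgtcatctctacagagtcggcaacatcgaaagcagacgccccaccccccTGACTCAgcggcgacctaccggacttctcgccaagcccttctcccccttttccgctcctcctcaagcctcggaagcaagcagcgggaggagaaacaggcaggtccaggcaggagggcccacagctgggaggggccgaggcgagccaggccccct
Plaur, chr7:24462233-24462482 on the + strand: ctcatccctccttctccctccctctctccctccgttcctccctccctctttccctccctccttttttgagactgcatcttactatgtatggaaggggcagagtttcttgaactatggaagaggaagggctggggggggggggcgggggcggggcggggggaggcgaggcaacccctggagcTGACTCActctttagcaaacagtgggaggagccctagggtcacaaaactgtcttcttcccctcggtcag
Serpinb2, chr1:107511173-107511422 on the + strand: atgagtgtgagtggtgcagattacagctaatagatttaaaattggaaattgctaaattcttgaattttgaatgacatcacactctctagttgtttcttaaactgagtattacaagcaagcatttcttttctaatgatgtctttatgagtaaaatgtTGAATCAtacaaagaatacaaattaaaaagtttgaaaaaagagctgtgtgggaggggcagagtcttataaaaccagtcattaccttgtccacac
Tfpi2, chr6:3968376-3968625 on the - strand: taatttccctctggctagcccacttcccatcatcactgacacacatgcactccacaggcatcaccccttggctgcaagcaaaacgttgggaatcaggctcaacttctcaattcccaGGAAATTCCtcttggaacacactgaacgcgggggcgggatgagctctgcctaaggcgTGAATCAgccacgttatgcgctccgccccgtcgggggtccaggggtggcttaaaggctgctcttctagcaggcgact
Windows were at hand for 6 of the 9 members, 10 windows in all. As the motifs were picked with these windows in view, their counts in members are not evidence of an excess: TGANTCA stood in 6 of the 10 windows, 2 of which share 1 Serpinb2 match, and in 6.75% of all 32851 windows of this length. F3 had 2 matches, starting 146 and 135 bases before the transcript, and a GGANTTTCC match 112 bases before it. Tfpi2 was the other member with a GGANTTTCC match, in 1 of its 3 windows, against 1.07% of all windows. Tfpi had neither in its 2 windows. A match is a run of letters and not a shown binding site.

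The probes that carry the main values are given by their first 30 of 60 bases, with positions on build mm9 as the files give them. F3 and Tfpi had several probes, and the remaining members 1 each.
F3, A_55_P1971889, chr3:121437717-121437776 on the + strand: ctgacaatgatggggtttaaacatttgaca
F3, A_65_P08971, chr3:121434609-121435346 on the + strand: agcacgggaaagaaaacaaacattacaaac
Tfpi, A_66_P132295, chr2:84273059-84273118 on the - strand: tttcgccagttatgatcacaaacattacat
Tfpi, A_52_P670263, chr2:84281022-84281081 on the - strand: tggtaaccctaactcactttaggtttatag
Tfpi, A_55_P2095360, chr2:84284179-84284238 on the - strand: atactgtaactgatcgcagtactgtaaata
Procr, A_51_P382152, chr2:155580945-155581004 on the + strand: ggcagacttactgtaggcattcaaaacatc
Plaur, A_52_P681310, chr7:25260569-25260628 on the + strand: ccctcgtgttgtcttctttggacctcagtt
Serpinb2, A_55_P2004867, chr1:109422046-109422105 on the + strand: catcataagtaagcatgcttacttacacac
The F3 probe A_65_P08971 spans 738 genomic bases and so crosses from one exon to another. Per the files, the Tfpi probe A_52_P670263 was designed on transcript variant 2 (NM_001177319), and the other Tfpi probes on variant 1 (NM_011576). The single probes of Tfpi2 (mm9 chromosome 6, 3915439 to 3915498), Thbd (chromosome 2, 148230235 to 148230294), Plat (chromosome 8, 23892531 to 23892590) and Plau (chromosome 14, 21662242 to 21662301) are not printed.

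None of the 9 members passed the test over all genes. Values are log2 processed signal with 0 at the 75th percentile of all probes on an array, and differences are knockout minus wild-type. Adjusted p-values are those of limma with Benjamini-Hochberg adjustment over the 24464 genes tested, at a threshold of 0.05. All 9 members were tested, since each was well above background on 3 or more arrays of a group. Of all genes tested, 0.0613% passed (15 genes; 0.0327% higher and 0.0286% lower), and 23.6% had an unadjusted p under 0.05. Without adjustment, 2 of 9 members (22.2%) were under 0.05, Plaur and Serpinb2, both lower in the knockout lungs, where 13.4% of all genes were lower at that level. In the direction of their means, 3 members were lower (Tfpi2, Plaur and Serpinb2) and 6 higher, with a median difference of 0.12 beside -0.03 for all genes.

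**Figure D1:**
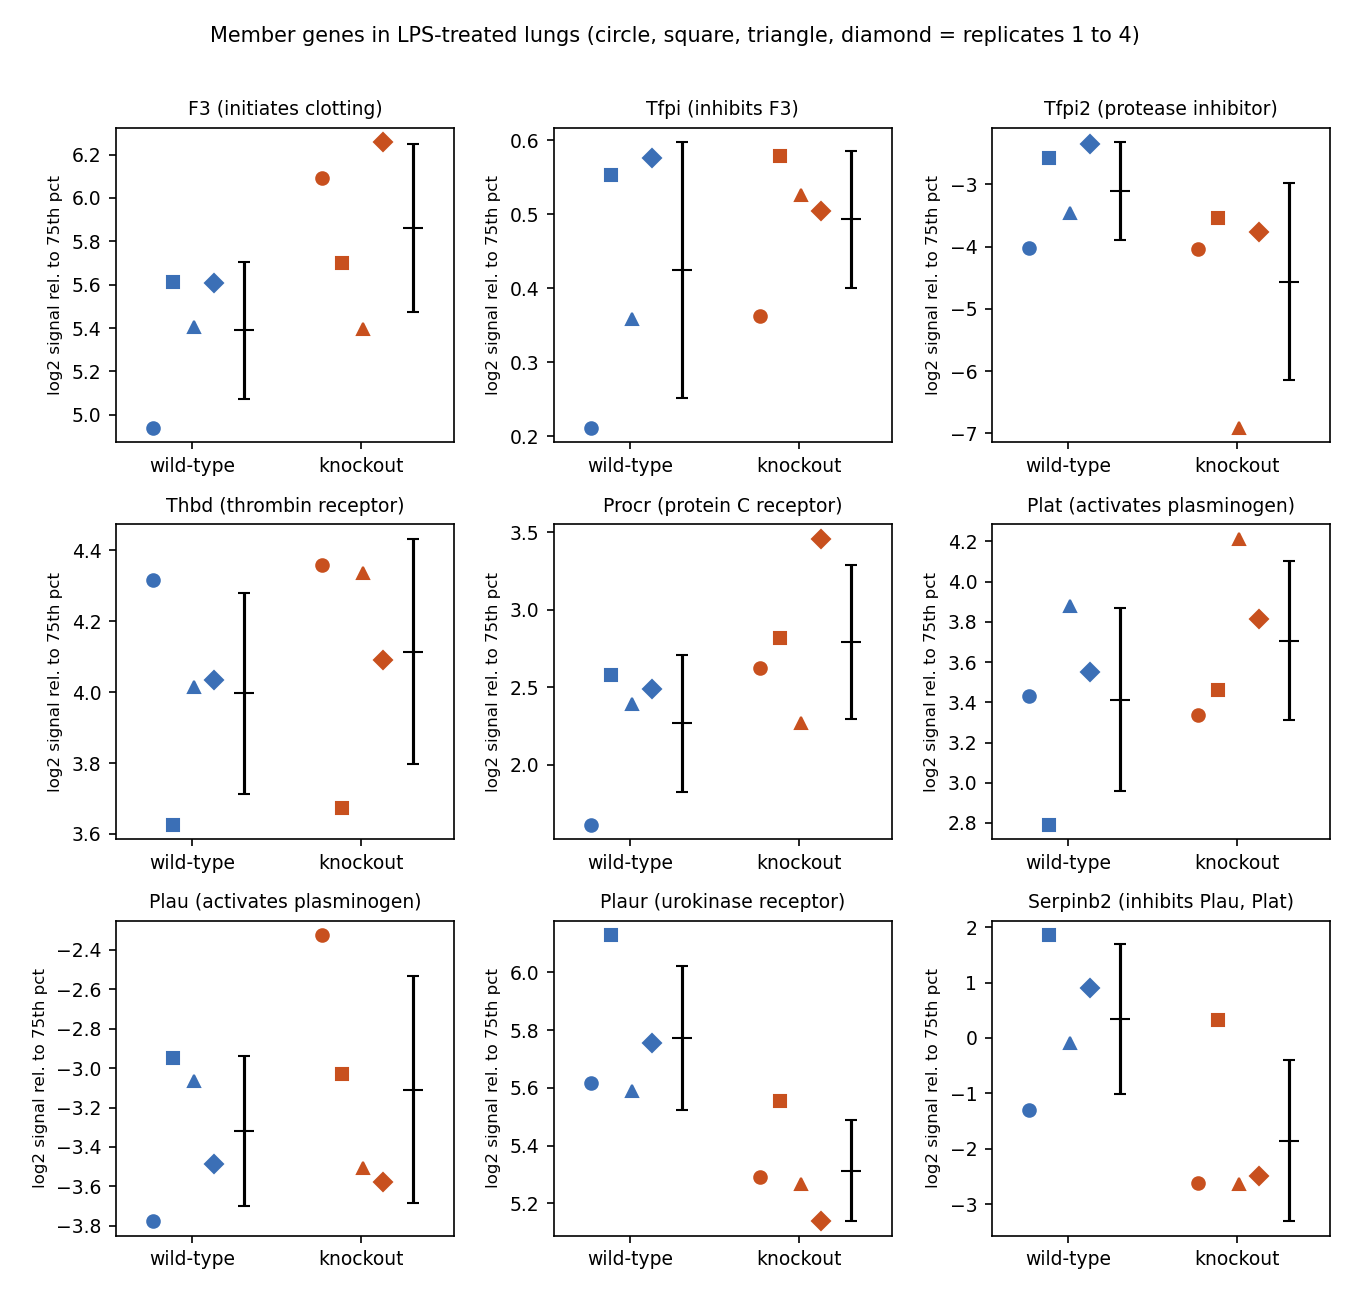
Log2 signal, with 0 at each array's 75th percentile, for each of the 9 members in each lung, wild-type in blue and knockout in orange, with the replicate shown by the marker shape and the mean with its SD in black (n = 4 per group); each panel has its own vertical range. Plaur is the member whose groups do not overlap, and 3 of 4 knockout values of Serpinb2 lie below all wild-type values.

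**Figure D2:**
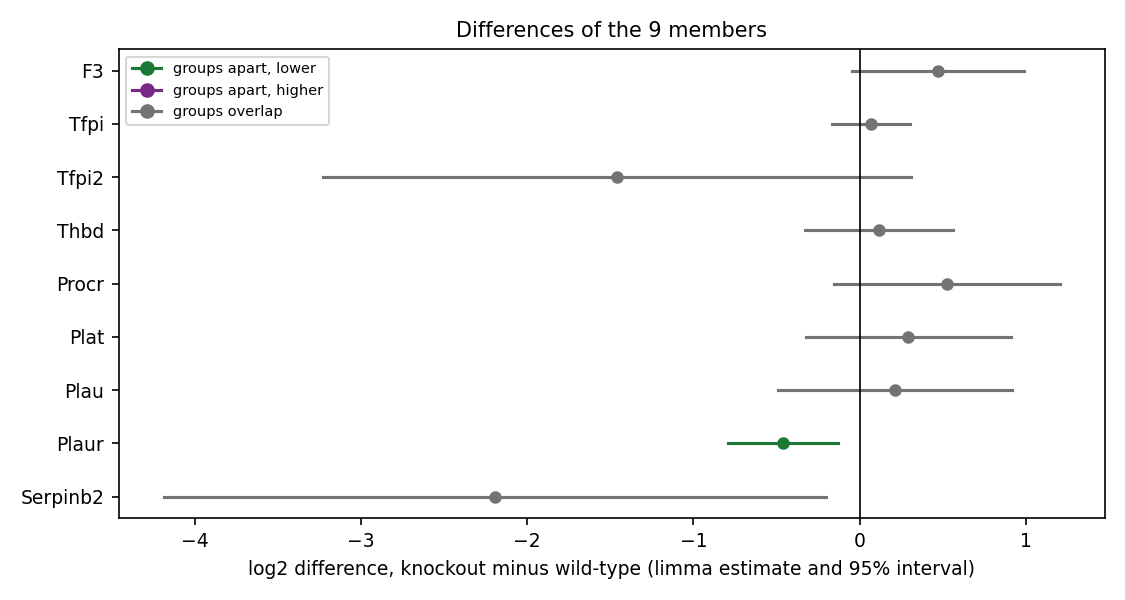
Difference in log2 signal, knockout minus wild-type, for each member, as the limma estimate with its 95% interval, coloured by whether the 4 knockout values lie apart from the 4 wild-type values. The intervals of Plaur and Serpinb2 leave out 0 before adjustment for the number of genes, and those of Serpinb2 and Tfpi2 are wide.

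The whole-series values that bear on these genes are few. Well above background were 61.5% to 65.3% of spots on wild-type and 58.1% to 61.6% on knockout arrays, and no probe was saturated. Surrogate values, which the scanner software puts in for signals it cannot tell from background, made up 15.2% to 20.0% of probes on wild-type and 20.8% to 24.5% on knockout arrays, without overlap. All arrays lay on 1 slide with each genotype in a row of its own, so position and genotype cannot be told apart. Ggps1 itself differed by -0.06 ± 0.068 (SE; limma, adjusted p = 0.608) on its brightest probe. Its other probes differed by -0.12 and 0.19 (exact permutation p = 0.429 and 0.0857, two-sided), so the probes disagree in sign. Which part of the gene was deleted is not stated in the labels, and the cells that keep the gene are in the tissue too, so its level does not check the labels. Lung epithelial markers were present on all arrays (8 of 8 well above background, among them Sftpc and Scgb1a1), and their summed level had a log2 value of 10.66 to 10.92 in wild-type and 10.63 to 10.97 in knockout lungs. Cardiac muscle markers such as Myh6, known from heart and from the walls of pulmonary veins, varied widely from lung to lung: their mean was 3.78 in wild-type replicate 2 and 4.01 and 3.99 in knockout replicates 2 and 4, against -0.57 to 0.81 in the other wild-type and 0.91 to 2.02 in the other knockout lungs. All 11 measured members of that list were higher in knockout means and 0 were called. Markers of fat and thymus, 8 of 10 measured with 5 higher and 0 called, ranged further, with a mean log2 level of -3.75 to -0.08 in wild-type and -3.21 to 1.12 in knockout lungs. This mean blends 2 tissues: the 5 higher were the fat genes, such as Adipoq (3.42) and Lep (3.82). The 3 lower were Cd8b1 (-1.17), Cd4 (-0.27) and Dntt (-0.29). Only 5 of the 8 were well above background on every array, and Lep was so on 0 wild-type arrays.

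F3, the initiator of clotting, stood higher in the mean of the knockout lungs by 1.39-fold without passing the test. On its brighter probe the wild-type lungs, in the order of replicates 1 to 4, gave 4.94, 5.61, 5.41 and 5.61, and the knockout lungs, in the same order, 6.09, 5.70, 5.40 and 6.26. Knockout replicates 1, 2 and 4 lay above every wild-type lung, while knockout replicate 3 lay among them and wild-type replicate 1 was the lowest of all. The difference was 0.47 ± 0.22 (SE; limma, adjusted p = 0.246), with a 95% interval from 0.97- to 1.99-fold. On the exon-crossing probe, the 4 wild-type lungs read 1.31, 2.21, 1.95 and 2.10 and the 4 knockout lungs 2.35, 2.22, 1.72 and 2.68. The order of the lungs was much the same there, with wild-type replicate 1 lowest and knockout replicate 4 highest, and the difference was 0.35 (exact permutation p = 0.257, two-sided). With the cardiac marker mean of each lung as a covariate, the difference of F3 was 0.27 (limma, adjusted p = 0.429).

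Tfpi, which encodes the inhibitor of the tissue factor and factor VII complex, was the member with the narrowest interval. The probe with the highest signal read 0.21, 0.55, 0.36 and 0.58 in the wild-type and 0.36, 0.58, 0.53 and 0.50 in the knockout lungs. The groups overlapped throughout, and the difference of 0.07 ± 0.10 (SE; limma, adjusted p = 0.713) had a 95% interval from 0.89- to 1.24-fold. The probe designed on transcript variant 2 differed by -0.03 (wild-type -0.10 ± 0.067, knockout -0.13 ± 0.153, SD, n = 4 per group) and the other probe designed on variant 1 by -0.09, with exact permutation p = 0.714 and 0.371. No Tfpi probe thus showed a difference larger than the spread between lungs, and averaging the probes turned the sign (-0.02). Whether each probe reads only the variant it was designed on was not tested.

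Set within each array, F3 over Tfpi lay at -0.24 to 0.09 in the wild-type lungs, as a log2 ratio with the wild-type mean at 0. In the knockout lungs it was 0.76, 0.16, -0.09 and 0.79. Replicates 1 and 4 of the knockout stood far above the wild-type range, replicate 2 just above it and replicate 3 inside it.

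Tfpi2, a related Kunitz-type inhibitor that acts on plasmin and on the tissue factor complex, was dim. It read -4.03, -2.57, -3.46 and -2.35 in the wild-type lungs and -4.03, -3.54, -6.92 and -3.76 in the knockout lungs. Knockout replicate 3 lay far below every other lung: there the probe was not well above background and held a surrogate value. The lowest signal well above background was also higher on the knockout arrays (-4.94 to -4.64) than on the wild-type arrays (-5.50 to -5.27), and the part of this in the values of dim genes such as Tfpi2 was not tested. The difference was -1.46 ± 0.77 (SE; limma, adjusted p = 0.284). Without that lung it was -0.67 (adjusted p = 0.366 with limma), and with normexp background correction -0.45 (adjusted p = 0.26 with limma), so the size rests on that value and on how background is handled.

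Both genes of the protein C pathway overlapped between genotypes. Thbd, the thrombin receptor of endothelium, read 4.31, 3.63, 4.01 and 4.03 in wild-type lungs and 4.36, 3.67, 4.34 and 4.09 in knockout lungs. Replicate 2 was the lowest of both groups, and the remaining lungs lay close together. The difference was 0.12 ± 0.19 (SE; limma, adjusted p = 0.739), and the 95% interval ran from 0.80- to 1.48-fold. It was 0.36 with the cardiac marker mean as a covariate (limma, adjusted p = 0.106) and, with 1 lung left out, between -0.01 (without wild-type replicate 2) and 0.26 (without knockout replicate 2). Endothelial markers, Pecam1 and Cdh5 among them, followed much the same lungs: the log2 of their summed level was lowest in wild-type replicate 2 (7.94) and knockout replicate 2 (8.20) and ran from 8.45 to 9.09 in the others, while by mean log2 level knockout replicate 4 was as low as these (2.72); 5 of 10 markers were lower in knockout means, 0 were called and all 10 were well above background on every array. The part of endothelial content in the values of Thbd was not tested.

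Procr, whose product holds protein C at the endothelial surface, had the larger difference of the pair. It read 1.61, 2.58, 2.39 and 2.49 in wild-type and 2.62, 2.82, 2.27 and 3.46 in knockout lungs. As with F3, knockout replicates 1, 2 and 4 lay above all wild-type lungs, knockout replicate 3 did not, and wild-type replicate 1 was lowest. The difference was 0.52 ± 0.29 (SE; limma, adjusted p = 0.312), with a 95% interval from 0.90- to 2.30-fold. With the cardiac covariate it was 0.19, without wild-type replicate 1 it was 0.31, and without knockout replicate 4 it was 0.30. Within arrays, the log2 ratio of F3 over Procr ran from -0.11 to 0.20 in wild-type and from -0.32 to 0.34 in knockout lungs, around a knockout mean of -0.05.

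The plasminogen activators differed little beside their spread. Plat, the tissue-type activator of vessel walls, read 3.43, 2.79, 3.88 and 3.55 in wild-type and 3.34, 3.46, 4.21 and 3.81 in knockout lungs. Wild-type replicate 2 was the lowest lung and knockout replicate 3 the highest, and the rest were interleaved. The difference was 0.29 ± 0.27 (SE; limma, adjusted p = 0.526; 95% interval 0.80- to 1.88-fold), and with 1 lung left out it lay between 0.09 (without wild-type replicate 2) and 0.45 (without wild-type replicate 3). Plau, urokinase, was dim, at -3.78, -2.95, -3.07 and -3.48 in wild-type and -2.33, -3.03, -3.51 and -3.58 in knockout lungs. Knockout replicate 1 was its highest lung by a wide margin, and without it the difference of 0.21 ± 0.31 (SE; limma, adjusted p = 0.702; 95% interval 0.71- to 1.88-fold) became -0.05.

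Plaur, the receptor that gathers urokinase on the surface of leukocytes and epithelium and is known to be induced by LPS, was the only member whose groups did not overlap. It read 5.62, 6.13, 5.59 and 5.76 in the wild-type lungs and 5.29, 5.56, 5.27 and 5.14 in the knockout lungs. The highest knockout value, that of replicate 2, lay just under the lowest wild-type values of replicates 1 and 3. The mean was 1.38-fold lower (difference -0.46 ± 0.14, SE; limma, adjusted p = 0.119, unadjusted p = 0.0127; 95% interval 0.58- to 0.92-fold). By exact permutation p was 0.0286 (two-sided), the smallest that 4 against 4 allows. Of all genes tested, 9.25% had every knockout value under every wild-type value, so 1 member of 9 (11.1%) is close to the background. With the cardiac covariate the difference was -0.59 and passed (limma, adjusted p = 0.047), in a setting that called 1751 of 24464 genes against 15 as reported. It did not pass in any of the other alternatives (adjusted p from 0.0793 to 0.243 with limma).

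Serpinb2, or plasminogen activator inhibitor 2, blocks urokinase and is among the genes that LPS is known to induce most in macrophages, and it had the largest difference of the 9. It read -1.30, 1.85, -0.09 and 0.90 in the wild-type lungs and -2.61, 0.33, -2.64 and -2.50 in the knockout lungs. Knockout replicates 1, 3 and 4 lay close together and below every wild-type lung, while knockout replicate 2 lay above wild-type replicates 1 and 3. The mean was 4.58-fold lower (difference -2.19 ± 0.86, SE; limma, adjusted p = 0.18, unadjusted p = 0.0347), with a 95% interval from 0.055- to 0.87-fold, and exact permutation gave p = 0.0857. Without knockout replicate 2 the difference was -2.92 (limma, adjusted p = 0.0773). With the cardiac covariate it was -3.16 and passed (limma, adjusted p = 0.0449), as did 1751 of 24464 genes in that setting. Its direction was the same in all 20 alternatives, from -1.69 without wild-type replicate 2 to -3.16, and the range of adjusted p with limma was 0.0449 to 0.332.

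Of the marker lists of cells known to carry these products, that of monocytes and interstitial macrophages was apart between genotypes. The platelet list, given further below, was apart as well. All 11 measured monocyte and interstitial macrophage markers, of 12 listed with Csf1r and Ccr2 among them, were lower in knockout means with 0 called, and the log2 of their summed level ran from 7.74 to 8.22 in wild-type and from 6.97 to 7.51 in knockout lungs, without overlap (exact permutation p = 0.0286, two-sided). Within each group the highest lung was replicate 2, as it was for Plaur and Serpinb2. Alveolar macrophage markers such as Marco and Chil3, in a list that holds Car4, a gene endothelium also expresses, were lower in 7 of 10 cases with 0 called (summed level 7.88 to 8.40 in wild-type and 7.55 to 7.92 in knockout lungs). This list split in both directions: Ear1 (-1.12), Ear2 (-0.997) and Fabp1 (-1.47) were lower with groups apart, and Plet1 (0.68) was higher with groups apart. Pparg (0.13) and Mrc1 (0.03) were also higher, and they and the remaining alveolar macrophage markers overlapped. Neutrophil markers such as S100a8 and Cxcr2, 6 of 9 lower with 0 called, had summed levels between 9.84 and 10.04 over all 8 lungs, with overlapping groups. That sum is led by bright markers such as S100a8 and S100a9 and says little of the dimmer ones. Cxcr2 (-1.10) and Retnlg (-0.57) were lower with groups apart, and the other markers overlapped. Mesothelial markers, 5 of 6 lower with 0 called, had overlapping summed levels of 5.29 to 5.86 in wild-type and 5.45 to 6.46 in knockout lungs. The 1 that was higher was Msln (0.62), a bright marker that weighs much in the sum. Lrrn4 was lower with groups apart (-1.43). All of these measured markers were well above background on every array, and the part of each cell type in the values of Plaur and Serpinb2 was not tested.

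Plaur and Serpinb2 followed each other on the log2 scale, while their rank correlation did not pass. Over the 8 lungs Pearson's r was 0.923 (exact permutation p = 0.00112, 0.0402 after Benjamini-Hochberg adjustment over 36 pairs of members) and Spearman's rho 0.833 (exact p = 0.0154, adjusted 0.138). Without the 2 lungs farthest from the median of Plaur, wild-type replicate 2 and knockout replicate 4, r was 0.898 (n = 6, exact p = 0.0181). With each group set to its own mean, r was 0.862. For F3 and Procr r was 0.914 (exact permutation p = 0.00293, adjusted 0.0527) and rho 0.976 (exact p = 0.000397, adjusted 0.0143). There r was 0.641 without wild-type replicate 1 and knockout replicate 4 (n = 6, exact p = 0.164), so the straight-line relation rests on these lungs. Tfpi2 and Serpinb2 had a rho of 0.929 (exact permutation p = 0.00223, adjusted 0.0402) with r = 0.729 (exact p = 0.0167, adjusted 0.15), and r was 0.878 (n = 6, exact p = 0.0139) without knockout replicate 3 and wild-type replicate 4. With each group set to its own mean, r was 0.576 for this pair and 0.877 for F3 and Procr. No other pair passed by either measure. Thbd ran against Serpinb2 (r = -0.824, exact permutation p = 0.015, adjusted 0.15; rho = -0.881, exact p = 0.00724, adjusted 0.0869), and r was -0.702 without replicate 2 of both groups (n = 6, exact p = 0.106). For this pair r was -0.934 with each group set to its own mean.

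**Figure D3:**
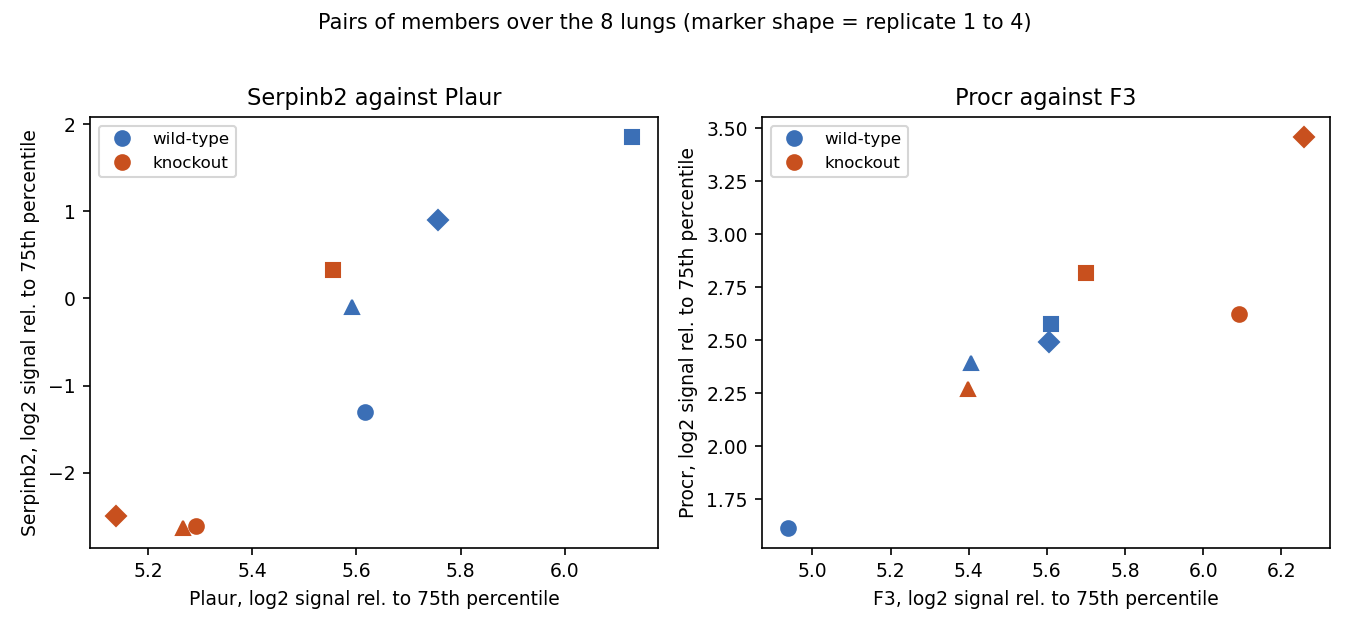
Log2 signal, with 0 at each array's 75th percentile, of Serpinb2 against Plaur (left) and of Procr against F3 (right), one point per lung, wild-type in blue and knockout in orange, with marker shape for the replicate. On the left, knockout replicate 2 lies among the wild-type lungs for Serpinb2 and just below them for Plaur. The ends of the right panel are wild-type replicate 1 and knockout replicate 4.

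Among 14440 tested genes with a RefSeq symbol, the ones whose pattern over the 8 lungs was most like that of Serpinb2, by Pearson's r, were Ier5 (0.98), Nfkb2 (0.98) and Ass1 (0.98). For F3 they were Hmga1 (0.97), Gprc5b (0.97) and Snrpe (0.96), and for Thbd they were Hyal2 (0.98), Caskin2 (0.98) and Rbm15b (0.97). With 8 lungs and that many genes, such values are descriptions only.

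Both activators were also set against Serpinb2 within each array, as log2 ratios with the wild-type mean at 0. Plau over Serpinb2 was 1.19, -1.14, 0.69 and -0.73 in wild-type lungs and 3.94, 0.30, 2.79 and 2.58 in knockout lungs. Plat over Serpinb2 was 1.66, -2.14, 0.90 and -0.42 against 2.87, 0.06, 3.78 and 3.24. In both ratios knockout replicates 1, 3 and 4 stood above every wild-type lung and replicate 2 among them. Both ratios hold Serpinb2, which in knockout replicates 1, 3 and 4 itself lay below every wild-type lung. They are thus not independent of each other or of the Serpinb2 values. These ratios were not tested.

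Of 44 other genes of coagulation and fibrinolysis, 34 were tested and 0 passed. The list was chosen with earlier results of these data known. At an unadjusted p under 0.05, 8 of 34 were lower (23.5%, beside 13.4% of all genes) and 3 higher (8.82%, beside 10.1%). Every knockout value lay under every wild-type value in 5 genes (14.7%, beside 9.25%) and above in 2 (5.88%, beside 6.08%). The median difference was -0.13. Left out as not well above background on enough arrays were F2, F12, F13b, Fgb, Kng2, F2rl2, F2rl3, Serpina5, Plg and Serpinf2, most of them known as products of the liver.

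**Figure D4:**
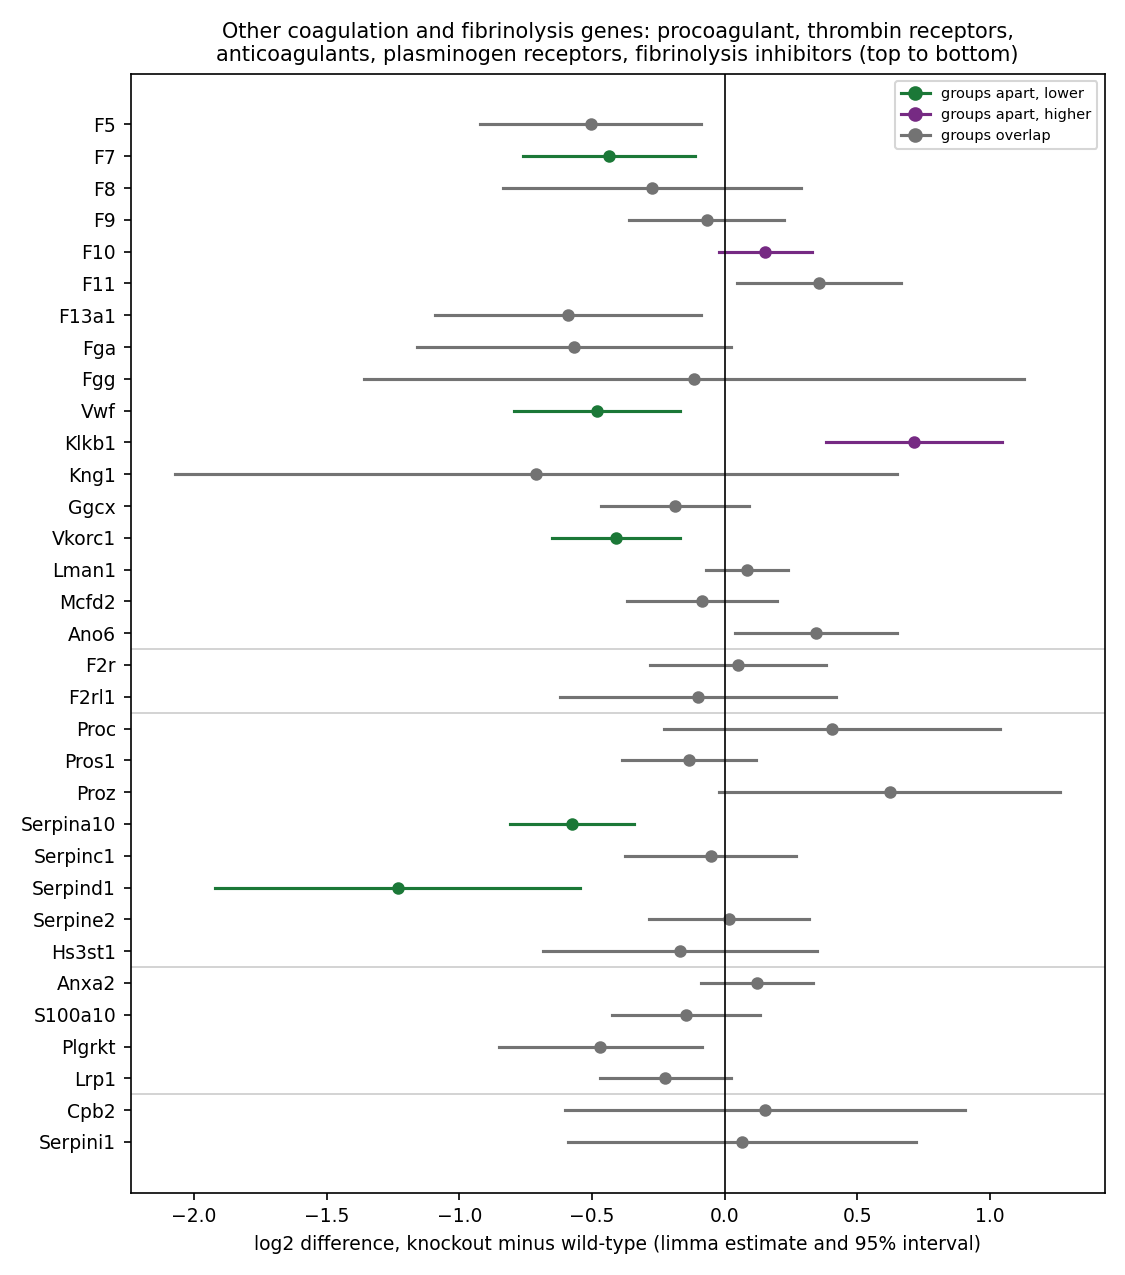
Difference in log2 signal, knockout minus wild-type, for other coagulation and fibrinolysis genes tested, as the limma estimate with its 95% interval before adjustment, in 5 blocks by role. Green marks the 5 genes whose knockout values all lie below the wild-type values and purple the 2 whose values all lie above; Serpind1 and Klkb1 stand farthest out among these.

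Of the procoagulant factors 12 of 17 were below 0 (70.6%, beside 54.4% of all genes tested), with a median of -0.19 and 0 called. Klkb1, plasma prekallikrein of the contact pathway, went the other way: it read -1.36, -1.95, -1.74 and -2.00 in wild-type and -1.03, -1.05, -1.17 and -0.94 in knockout lungs. The groups did not overlap, and the difference was 0.71 ± 0.14 (SE; limma, adjusted p = 0.0626), past the threshold in 4 of 20 alternatives. Those 4 settings called from 350 to 3506 genes each, against 15 as reported. Vwf, which ties platelets to the vessel wall, differed by -0.48 ± 0.14 (SE; limma, adjusted p = 0.1), and its 4 knockout values (5.26 to 5.63) lay under the wild-type values (5.70 to 6.24). Vkorc1, which recycles the vitamin K that clotting factors need, differed by -0.41 ± 0.10 (limma, adjusted p = 0.0846), and F7, the partner of tissue factor, by -0.43 ± 0.14 (limma, adjusted p = 0.126). Both had groups apart, and every tested probe of each pointed the same way. F13a1, which cross-links fibrin, differed by -0.59 ± 0.22 with overlapping groups (limma, adjusted p = 0.161). F10, the factor that makes thrombin, showed the smallest shift among genes with groups apart, 0.15 ± 0.076 (limma, adjusted p = 0.261), but its second probe differed by -0.84, so the probes disagree. The fibrinogen chains Fga (-0.57 ± 0.26, well above background on 2 of 4 knockout arrays) and Fgg (-0.12 ± 0.54) overlapped between groups.

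Factor V (F5), which platelets are known to carry as they do factor XIII and Vwf, differed by -0.50 ± 0.18 (SE; limma, adjusted p = 0.153). It passed with the cardiac covariate at -0.72 (limma, adjusted p = 0.0351), as did 1751 of 24464 genes. Platelet markers such as Pf4 and Itga2b were lower in 8 of 8 cases with 1 called, Gp1ba. The log2 of their summed level was 5.28 to 6.15 in wild-type and 4.69 to 5.10 in knockout lungs, without overlap (exact permutation p = 0.0286, two-sided). All 8 were well above background on every array, and their part in the values of F5, F13a1 and Vwf was not tested. Of 6 hepatocyte markers listed, 5 were tested, 3 lower and 0 called: 4 were well above background on every array, Apoa2 and Serpina1a among them, and Alb on 3 wild-type and 0 knockout arrays. Their summed levels overlapped (2.32 to 3.34 in wild-type and 2.21 to 2.93 in knockout lungs).

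Anticoagulants other than the members had 5 of 8 below 0, a median of -0.09 and 0 called. Serpina10, which with protein Z inhibits activated factor X, read 0.53, 0.39, 0.33 and 0.56 in wild-type and -0.02, 0.01, -0.33 and -0.17 in knockout lungs. The groups were well apart, the difference was -0.57 ± 0.10 (SE; limma, adjusted p = 0.0603), its second probe gave -0.70, and it passed in 5 of 20 alternatives. Those 5 settings called from 350 to 3506 genes each, against 15 as reported. Serpind1, heparin cofactor II, read -0.55, -1.06, -0.68 and -0.99 against -1.43, -1.99, -1.86 and -2.93. These groups did not overlap either, and the mean was 2.35-fold lower (difference -1.23 ± 0.30, SE; limma, adjusted p = 0.0789). Proz, which encodes protein Z, differed by 0.62 ± 0.28 on its brighter probe and by -0.50 on the dimmer one. Proc (0.40 ± 0.27), Pros1 (-0.13 ± 0.11) and Serpinc1, antithrombin (-0.05 ± 0.14, SE), overlapped between groups.

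Of the protease-activated receptors, F2r, a thrombin receptor, differed by 0.05 ± 0.14 (SE). F2rl1 differed by -0.10 ± 0.22 (SE) and was very dim, well above background on 2 of 4 knockout arrays. Among plasminogen receptors 3 of 4 were below 0, and Plgrkt, a membrane receptor of plasminogen (named 5033414D02Rik in the files), differed by -0.47 ± 0.17 (SE; limma, adjusted p = 0.151). Lrp1, which clears activator and inhibitor complexes, differed by -0.22 ± 0.11, and the annexin receptor pair by 0.12 ± 0.091 (Anxa2) and -0.15 ± 0.12 (S100a10). Cpb2, which protects fibrin from plasmin, differed by 0.15 ± 0.33, and the neuronal inhibitor Serpini1 by 0.06 ± 0.28, with a second, dimmer probe at -1.02.

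Of 13 regulators of F3 and Thbd, 12 were tested, 9 were lower (75%, beside 54.4% of all genes tested) and 0 were called. Groups were apart in 1 that was higher (8.33%, beside 6.08% of all genes) and 1 that was lower (8.33%, beside 9.25%), so both shares are close to the background. Nos3, the endothelial nitric oxide synthase that statins are known to raise in culture, read 2.87 to 3.03 in the 4 wild-type and 3.31 to 4.27 in the 4 knockout lungs. Every knockout lung lay above every wild-type lung, and the difference was 0.69 ± 0.20 (SE; limma, adjusted p = 0.104). Klf2, the endothelial factor that drives Thbd, differed by 0.20 ± 0.17 (adjusted p = 0.489 with limma) and Klf4 by 0.16 ± 0.30. Fos, a part of AP-1, differed by -0.67 ± 0.18 with groups apart (limma, adjusted p = 0.0917), and Egr1, another activator of F3, by -0.51 ± 0.23 (limma, adjusted p = 0.23).

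**Figure D5:**
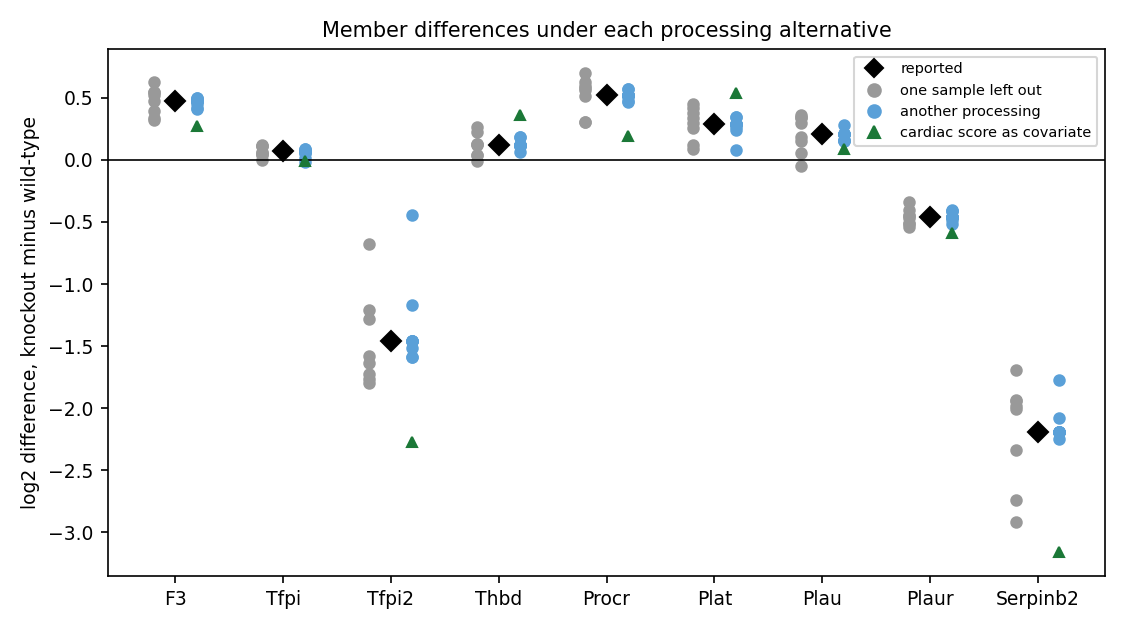
Difference in log2 signal, knockout minus wild-type, of each member as reported (black diamond), with one lung left out (grey), under another processing (blue) and with the cardiac marker mean as a covariate (green triangle). Serpinb2 and Plaur lie below 0 in every alternative and F3 and Procr above it, while Tfpi, Thbd and Plau each cross 0 in at least 1.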

How the data were processed

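RNA of 8 whole lungs was labelled with Cy3, 1 Agilent array each, per the labels' protocols. Feature Extraction 10.7.1.1 made the deposited intensity values, per the file headers, among them a background-subtracted, detrended processed signal. The authors' deposited log2 values (the value table) have columns that share 1 distribution and correlate with log2 processed signal at r of at least 0.999.

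Control and outlier spots were left out, spots of a probe averaged, and each array's log2 processed signal set to 0 at its 75th percentile. Probes well above background on 3 or more of 4 arrays of a group were kept, and the brightest probe stood for a gene. The test of genotype was that of limma 3.58.1 (R 4.3.3), and single values were tested by exact permutation over the 70 divisions of the samples. The number of arrays limits the precision, and p-values set each difference against the spread between lungs of a genotype. That spread does not include an effect of slide row, which goes with genotype.

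Named were all members, well-known pathway genes chosen by name, the 3 genes with the smallest p in each list and genes past the threshold, and 1 pathway gene is not reported here. Members and lists were chosen with earlier results of these data known. Alternatives are in the closing section. Figures were drawn with matplotlib 3.10.9.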

Additional observations from a re-analysis of the deposited data

Results flagged for a closer look

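Knockout replicate 2 stood apart from the other knockout lungs for Serpinb2, at 0.33 against -2.64 to -2.50. Knockout replicate 3 stood apart for Tfpi2, at -6.92 against -4.03 to -3.54, where the probe held the surrogate value. Of 20 sets of 4 lungs examined (the members and Ggps1 in each group), these 2 had a gap of more than 0.829 of the range, and chance alone gives about 1 in 20.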

How the results depend on the processing

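Of 179 member values under 20 alternatives, 174 kept their direction and 5 turned. With probes averaged Tfpi was -0.018 and Ggps1 0.0049. With the cardiac covariate Tfpi was -0.0069, Plaur -0.592 and Serpinb2 -3.16, the latter both past the threshold. So 2 of 9 members were called, in a setting that called 1751 of all 24464 genes. No member was called in the other 20 settings, the threshold of 0.1 included. Leaving out 1 lung at a time gave -0.0028 to 0.119 for Tfpi, -0.0065 to 0.264 for Thbd and -0.051 to 0.366 for Plau. Tfpi2 has no value when all 8 arrays must be above background. The median member difference was 0.036 to 0.184 with 1 lung left out.

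Genes called, 15 as reported, were 513 with normexp, 36 with median centring, 3506 with no filter on dim probes, 127 with all 8 arrays above background, 9 with probes averaged, 417 with an intensity trend, 350 with array weights, 1751 with the cardiac covariate and 1824 at 0.1, and 1 to 24 with 1 lung left out. The other coagulation genes called were 2 with normexp, 4 with no filter, 1 with the trend, 2 with array weights, 5 with the cardiac covariate and 4 at 0.1. The cause was not tested. Same-numbered lungs share only a number (correlations of their deviations 0.129, 0.47, 0.012 and -0.292, and not each lung best with its own number). With the replicate block 46 genes were called, 0 of them members, and Serpinb2 differed by -2.19 (limma, adjusted p = 0.0721). A slide block could not be fitted with 1 slide.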
